A study of Mus musculus with 18 samples.

Results

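The snoRNA host genes Gas5, Snhg1, Snhg3, Snhg4, Snhg5, Snhg6, Snhg8 and Snhg12 were followed through the response of cultured neural stem cells (NSCs) to hydrogen peroxide (H2O2), an oxidant. They were chosen by symbol, with earlier results of these data known, and all 8 were found among the 50600 genes of the deposited tables. NSCs from the dentate gyrus of C57BL/6J mice of 6 to 9 weeks were grown with epidermal growth factor and fibroblast growth factor and received vehicle or 500 µM H2O2 for 24 h. The vehicle is given as water in the sample labels and as phosphate-buffered saline in the study's methods, and neither source names a transgene in these cultures. The column headers name 3 cultures, F5, F8 and M9, and the methods describe 1 line from pooled female and 1 from pooled male mice, so cultures of a line are not separate animals. From each culture and treatment RNA was diluted to inputs of 1 ng, then 100 pg, then 10 pg ahead of cDNA amplification, which gave 18 libraries in 6 groups of 3. The 3 inputs of a culture were diluted from 1 RNA sample and are not independent replicates of H2O2 treatment.

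These genes are transcribed by RNA polymerase II into RNAs that code for no long protein. Their introns hold small nucleolar RNAs (snoRNAs), which are cut out after splicing and guide the chemical modification or the cleavage of ribosomal RNA, box C/D snoRNAs for ribose methylation and H/ACA snoRNAs for pseudouridylation. Many hosts start at a terminal oligopyrimidine tract (TOP), as ribosomal protein mRNAs do, and the spliced RNA of several is degraded by nonsense-mediated decay once ribosomes translate it. Gas5 was named for its accumulation in growth-arrested mouse cells. The libraries were primed at poly(A) tails, so the values below are of the spliced or unspliced host RNA and not of the mature snoRNAs.

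Positions are in GRCm38 with the gene models of GENCODE M21. Gas5 lies on chromosome 1 from 161034422 to 161038539 on the plus strand and holds 9 snoRNA positions. Snhg1 lies on chromosome 19 from 8723475 to 8726443, plus strand, and holds 8. Snhg12, on chromosome 4 from 132308623 to 132311024, plus strand, holds 4, and Snhg3, on chromosome 4 from 132348014 to 132353686, minus strand, holds 2. Snhg5, on chromosome 9 from 88521050 to 88522929, minus strand, holds 2. Snhg6, on chromosome 1 from 9941959 to 9944118, minus strand, and Snhg8, on chromosome 3 from 123507552 to 123508404, minus strand, hold 1 each. Coordinates of Snhg4, host of the U19 snoRNA, are not given here. Of these snoRNAs, box C/D sequences (TGATGA near the 5′ end and CTGA near the 3′ end, read on the snoRNA strand) were found in 7 of the 9 of Gas5, 6 of the 8 of Snhg1, both of Snhg5, the single one of Snhg6 and 1 of the 4 of Snhg12. An ACA at the 3′ end, the mark of H/ACA snoRNAs, was found in both of Snhg3, in that of Snhg8 and in 2 of the 4 of Snhg12. All but those of Snhg3 and Snhg6 lie whole within annotated exons of their host, because the annotation includes transcripts that keep the introns.

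Of these products 6 are shown because they display the 2 classes that the host genes carry, with boxes C and D or the terminal ACA in capitals, 5′ to 3′ as DNA from the GENCODE M21 annotation of GRCm38. Snord47 comes from Gas5, Snord50a and Snord50b from Snhg5, Snord87 from Snhg6, Snord99 from Snhg12 and Snora24 from Snhg8. Snord50a and Snord50b, both 72 bases long, differ by 1 substitution, C50A, with Snord50a first and positions counted from 1 at the 5′ end.
Snord47, chr1:161038082-161038158: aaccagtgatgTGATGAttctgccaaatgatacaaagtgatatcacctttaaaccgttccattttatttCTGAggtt
Snord50a, chr9:88521529-88521600: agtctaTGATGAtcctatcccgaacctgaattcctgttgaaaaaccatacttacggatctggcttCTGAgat
Snord50b, chr9:88521797-88521868: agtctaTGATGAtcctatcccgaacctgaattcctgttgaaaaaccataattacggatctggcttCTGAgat
Snord87, chr1:9942463-9942549: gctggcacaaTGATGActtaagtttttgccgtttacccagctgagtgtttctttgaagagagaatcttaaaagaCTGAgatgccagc
Snord99, chr4:132310691-132310764: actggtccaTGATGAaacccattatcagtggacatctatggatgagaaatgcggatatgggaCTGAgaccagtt
Snora24, chr3:123507937-123508066: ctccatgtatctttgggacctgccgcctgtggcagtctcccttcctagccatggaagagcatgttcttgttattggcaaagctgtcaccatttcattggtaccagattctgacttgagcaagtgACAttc

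Promoters of the host genes are shown from 40 bases before to 15 bases after the start that RefSeq gives (GRCm38.p6), since the choice of genes did not use them. The table used holds 6 of the 8 genes, all but Snhg4 and Snhg6. TATA in the stretch from 40 to 15 bases before the start and a pyrimidine run within 10 bases of the start (a C followed by at least 4 C or T) are in capitals. Both were read on the gene's strand, and TATA reads alike on either strand. Gas5, Snhg1, Snhg5, Snhg8 and Snhg12 had TATA in a window, as did 5.91% of 32851 promoters. A pyrimidine run stood at a start of Gas5, Snhg3, Snhg5, Snhg8 and Snhg12 and in 29.0% of promoters, and both motifs in Gas5, Snhg5, Snhg8 and Snhg12 and in 1.80% of promoters. Gas5 has an upstream start in RefSeq with neither. A match is a description of the letters only.
Gas5, chr1:161035126-161035180: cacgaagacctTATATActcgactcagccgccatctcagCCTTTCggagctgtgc
Snhg1, chr19:8723447-8723501: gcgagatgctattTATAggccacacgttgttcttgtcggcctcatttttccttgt
Snhg3, chr4:132353672-132353726: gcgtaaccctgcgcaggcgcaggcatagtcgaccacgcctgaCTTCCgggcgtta
Snhg5, chr9:88522883-88522937: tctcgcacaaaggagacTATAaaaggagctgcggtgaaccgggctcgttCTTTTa
Snhg8, chr3:123508322-123508376: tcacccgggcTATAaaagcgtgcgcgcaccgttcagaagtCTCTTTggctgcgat
Snhg12, chr4:132308638-132308692: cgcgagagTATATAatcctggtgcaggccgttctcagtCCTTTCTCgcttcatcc

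The values are normalized counts, in which the authors had scaled each library's gene counts by a size factor. The libraries held 10032628 to 11946931 reads at 1 ng, with 10891411 to 13051643 for 100 pg libraries and 10850553 to 12362510 for 10 pg libraries. H2O2 was compared with vehicle within each input by limma on log2(normalized count + 1), with p-values adjusted over all genes tested and called below 0.05. A log2 difference below is H2O2 minus vehicle on that scale. As a check of the cells, 9 stem and progenitor markers were summed at 1 ng. Their sum was 72636 to 77750 normalized counts in vehicle and 72031 to 93358 with H2O2. Taken singly, 7 of the 9 had a log2 difference below 0 (median -0.06). Limma called 1 of them higher and 0 lower, beside 5.57% and 7.11% of all genes tested. The sums over 4 markers each of neurons, oligodendrocytes, microglia and endothelium reached at most 168 in any 1 ng library, and the sum over 4 astrocyte markers ran from 1852 to 3193.

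At 1 ng, the largest RNA input, H2O2 and vehicle libraries stood apart for all snoRNA host genes but Snhg8. In 7 of 8 every H2O2 library was below every vehicle library, a separation seen in 19.7% of the 13692 genes tested. Gas5 and Snhg5 passed the threshold and fell, so 2 of 8 were called lower and 0 higher, beside 7.11% of genes called lower and 5.57% called higher. The median log2 difference of the 8 was -0.66, beside 0.02 over all genes tested. In bulk RNA, fewer cells that express a gene and less of its RNA per cell cannot be told apart.

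Gas5, the most abundant member, measured 1154 (F5), 1288 (F8) and 1012 (M9) normalized counts in the vehicle libraries and 734, 877 and 806 in the H2O2 libraries of the same cultures. Its mean fell from 1151 ± 138 to 806 ± 71.1 (SD, n = 3), to 70.0% of vehicle, a log2 difference of -0.51 (SE 0.12, adjusted p = 0.0372). The groups did not overlap, and each culture was lower after H2O2, at 63.7% (F5), 68.1% (F8) and 79.6% (M9) of its own vehicle library. DESeq2 on the recovered reads gave Gas5 an adjusted p of 0.00706.

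Snhg5, host of the pair Snord50a and Snord50b shown above, had the largest log2 difference of the 8 at this input. It measured 145, 229.9 and 178 normalized counts in vehicle (F5, F8, M9) and 39.2, 74.2 and 109 with H2O2. The mean fell from 184 ± 42.9 to 74.0 ± 34.6, to 40.2% of vehicle (log2 difference -1.39, SE 0.37, adjusted p = 0.0487). The highest H2O2 library, M9, stayed below the lowest vehicle library, F5. The decrease was deepest in F5 (27.1% of its vehicle) and F8 (32.3%) and least deep in M9 (61.0%).

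Snhg4 showed the same arrangement of libraries without passing the threshold. Its vehicle libraries held 100.1, 146 and 106 normalized counts and its H2O2 libraries 36.2, 45.8 and 78.0, with means of 117 ± 25.1 and 53.3 ± 21.9. The log2 difference was -1.18 (SE 0.33, adjusted p = 0.0523). When culture was added as a block, which compares the treatments within F5, F8 and M9, Snhg4 was called lower (adjusted p = 0.0425) along with Gas5 (0.0249) and Snhg5 (0.0231), so 3 of 8 were called beside 9.87% of genes. M9 again stood nearest to its vehicle library, at 73.6%, against 36.2% in F5 and 31.3% in F8.

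**Figure D1:**
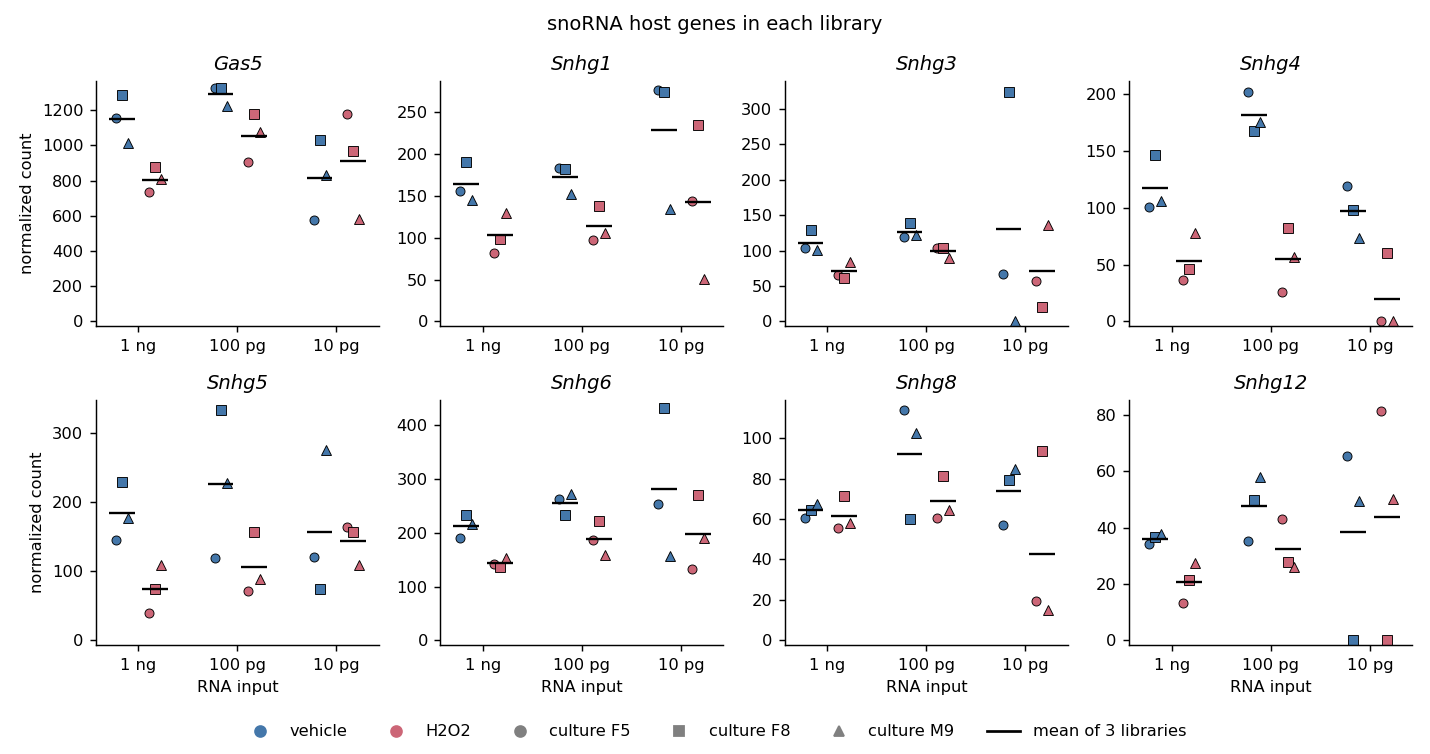
Normalized counts (y axis, linear, a scale of its own per gene) of the 8 snoRNA host genes in every library by RNA input (x axis), vehicle in blue and H2O2 in red, with a marker shape per culture and a bar at the mean of 3 libraries. At 1 ng the red points lie below the blue ones in 7 of 8 panels, at 10 pg they mix, and points at 0 appear for Snhg4 and Snhg12.

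Snhg6, host of Snord87, measured 191, 234 and 215 normalized counts in vehicle and 142, 136 and 154 with H2O2. Means were 213 ± 21.6 and 144 ± 8.97, a log2 difference of -0.56 (SE 0.16, adjusted p = 0.0570). The 3 cultures lay close together, between 58.3% and 74.4% of their vehicle libraries. DESeq2 called it lower (adjusted p = 0.0210), as did edgeR (0.0497). DESeq2 with the culture as a block did not (0.0849), and limma with the block gave 0.0657.

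Snhg1, the host of U22 (Snord22) and of most box C/D snoRNAs of this group after Gas5, measured 156, 190.5 and 145 normalized counts in vehicle and 81.5, 98.6 and 129.6 with H2O2 (log2 difference -0.67, SE 0.23, adjusted p = 0.0885). M9 stood at 89.7% of its vehicle library, while F5 and F8 were at 52.4% and 51.8%. Snhg1 missed the threshold in limma and passed it in DESeq2 (adjusted p = 0.0489). Under DESeq2, run here without a minimum fold change, 5 of 8 were called lower (Gas5, Snhg1, Snhg4, Snhg5 and Snhg6) beside 10.6% of genes. Their log2 differences in DESeq2 were -1.32 (Snhg5), -1.14 (Snhg4), -0.66 (Snhg1), -0.57 (Snhg6) and -0.51 (Gas5). The study also used DESeq2 but describes a minimum fold change, so the calls here were not made by its rule. DESeq2 with the culture block called 3 of 8 (Gas5, Snhg4 and Snhg5) beside 9.7% of genes, and Snhg1 (adjusted p = 0.0938) and Snhg6 were lost.

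Snhg3, host of the U17 snoRNAs Snora73a and Snora73b that take part in cleavage of the ribosomal RNA precursor, measured 104, 129 and 101 normalized counts in vehicle and 65.4, 62.0 and 84.3 with H2O2 (log2 difference -0.65, SE 0.22, adjusted p = 0.0907). Snhg12, the least abundant member, measured 34.1, 36.6 and 37.7 in vehicle and 13.1, 21.4 and 27.4 with H2O2 (log2 difference -0.84, SE 0.34, adjusted p = 0.135), from 13 to 43 reads per library. In both, no H2O2 library reached the vehicle range, and neither passed the threshold in limma, DESeq2 or edgeR.

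Snhg8, which carries Snora24, was the exception at 1 ng. It measured 60.7, 64.5 and 67.4 normalized counts in vehicle and 55.3, 71.2 and 57.9 with H2O2, so the groups overlapped. The means were 64.2 ± 3.37 and 61.5 ± 8.50, at 95.8% of vehicle (log2 difference -0.07, SE 0.23, adjusted p = 0.863). F8 was higher after H2O2 (110.4% of its vehicle) and F5 and M9 lower (91.1% and 85.9%). The difference between Snhg8 and the other members was not tested. Across the 6 libraries at 1 ng, log2 levels of the 21 pairs among the other 7 members had Pearson r from 0.82 to 0.99, and the 7 pairs with Snhg8 had r from 0.08 to 0.43, where the libraries share their treatment, culture and size factor. With each group's mean taken out, the ranges overlapped, at 0.15 to 0.97 and -0.37 to 0.37.

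**Figure D2:**
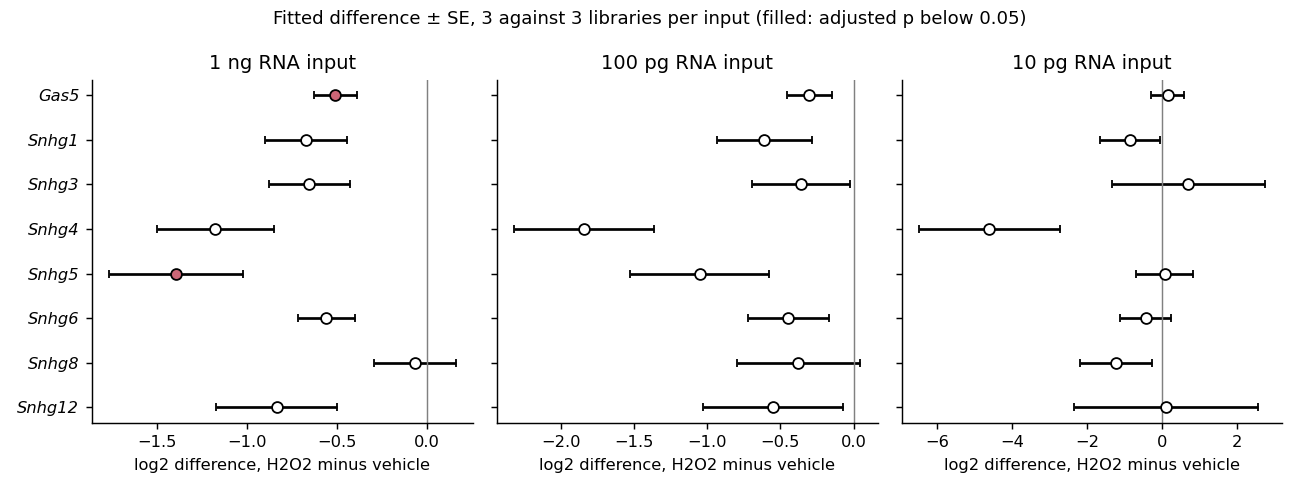
Log2 difference of each host gene, H2O2 minus vehicle, on log2(normalized count + 1) (x axis, its range differs between panels) with the standard error as a bar, from 3 against 3 libraries at each input. Filled points, Gas5 (-0.51) and Snhg5 (-1.39) at 1 ng, have an adjusted p below 0.05, and the points of 10 pg spread from -4.60 to 0.70.

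The calls rest on all 6 libraries at 1 ng. With any 1 library left out, vehicle or H2O2 of F5, F8 or M9, 0 of 8 were called, with adjusted p of 0.0662 to 0.134 for Gas5 and 0.0560 to 0.175 for Snhg5. Their log2 differences then ran from -0.60 to -0.43 and from -1.73 to -1.003. In 5 of these 6 fits limma called no gene of the table at all, and without the H2O2 library of F5 it called 775 genes lower.

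Genes of dividing cells moved with the H2O2 groups and by culture. The summed level of Mki67, Top2a, Cdk1, Ccnb1 and Aurkb at 1 ng was 13981 (F5), 15596 (F8) and 16879 (M9) normalized counts in vehicle and 964, 5333 and 6964 with H2O2. The H2O2 library of F5, lowest in this sum, was also the lowest of the 6 in Gas5, Snhg1, Snhg4, Snhg5, Snhg8 and Snhg12, and in Snhg3 and Snhg6 the H2O2 library of F8 was lowest. The part of cell division in the difference of the host RNAs was not tested.

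At 100 pg, a dilution of the same RNA samples, all 8 log2 differences were below 0 and none passed the threshold in limma, beside 0.846% of the 12171 genes tested called lower. The median of the 8 was -0.50, beside 0.01 over all genes tested. In 5 of 8 (Gas5, Snhg1, Snhg3, Snhg4 and Snhg6) every H2O2 library was below every vehicle library, against 14.1% of genes. At an unadjusted p below 0.05 limma had 1 of 8, Snhg4, beside 2558 of the 12171 genes tested, in either direction. DESeq2 called 1 of 8 lower, also Snhg4 (adjusted p = 0.00692), beside 5.01% of genes, and edgeR gave it an adjusted p of 0.0879.

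Snhg4 had the largest log2 difference at 100 pg. Its vehicle libraries held 201, 168 and 175 normalized counts (F5, F8, M9) and its H2O2 libraries 25.8, 82.3 and 56.7, or 12.8%, 49.1% and 32.4% of the same culture's vehicle. The log2 difference was -1.85 (SE 0.48, adjusted p = 0.0805 in limma). Snhg5 measured 119.5, 334 and 228 in vehicle and 72.1, 157 and 88.3 with H2O2 (log2 difference -1.05, SE 0.47, adjusted p = 0.246). The vehicle libraries of Snhg5 varied by 47.2% of their mean (coefficient of variation), and the H2O2 library of F8 lay above the vehicle library of F5, although each culture was lower after H2O2.

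Gas5 at 100 pg measured 1324, 1327 and 1221 normalized counts in vehicle and 903, 1176 and 1078 with H2O2, at 81.5% of vehicle (log2 difference -0.30, SE 0.15, adjusted p = 0.301). The groups did not overlap, with a smaller gap than at 1 ng. Snhg1 stood at 65.9% of the vehicle mean, Snhg3 at 77.8% and Snhg6 at 73.8%, with adjusted p of 0.333, 0.595 and 0.3998. Snhg8 stood at 74.6% (log2 difference -0.38, adjusted p = 0.663) and Snhg12 at 67.8% (-0.55, adjusted p = 0.563), and both overlapped between groups. Snhg8 was higher after H2O2 in F8 and lower in F5 and M9, as at 1 ng. Snhg12 was higher in F5 and lower in F8 and M9.

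**Figure D3:**
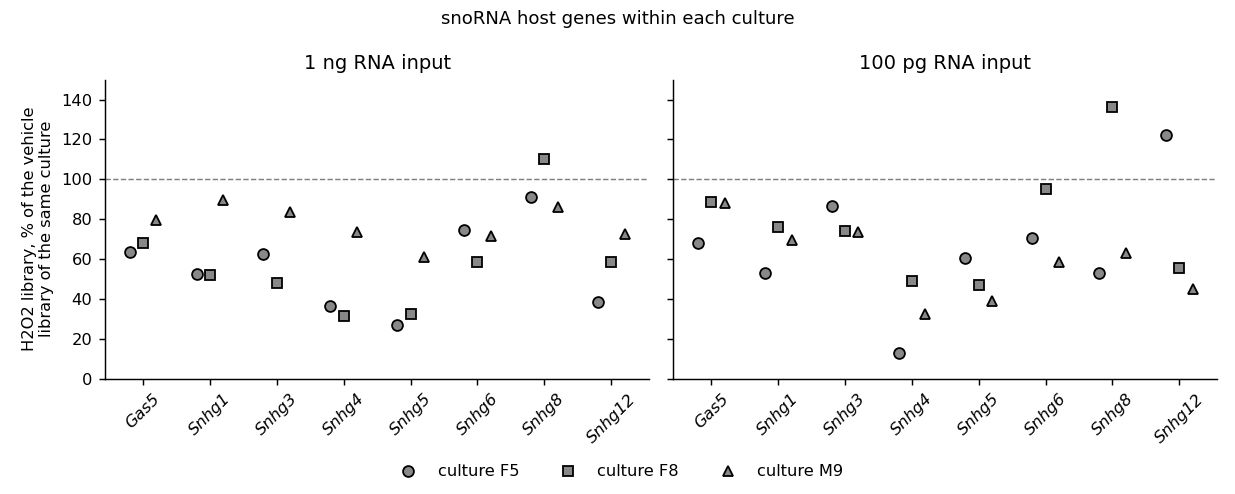
Level of each host gene in the H2O2 library as a percentage of the vehicle library of the same culture (y axis, from 0, dashed line at 100%) at 1 ng (left) and 100 pg (right), 1 marker per culture. At 1 ng M9 lies nearer to 100% than F5 and F8 for Gas5, Snhg1, Snhg3, Snhg4, Snhg5 and Snhg12, and at 100 pg M9 is the lowest of the 3 cultures for Snhg3, Snhg5, Snhg6 and Snhg12.

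At 10 pg the groups could not be separated. The CLEAR table, which keeps the genes that the authors' filter takes to be reliably quantified, held 5 of the 8 at this input, and Snhg3, Snhg4 and Snhg12 were read from the unfiltered table, which has size factors of its own. In limma the log2 difference was below 0 in 4 of 8 and above in 4. None was called by limma (smallest adjusted p 0.690, for Snhg8 at 57.8% of vehicle) or edgeR (0.839). Snhg3 (0.70) and Snhg5 (0.07) were above 0 in limma although their means were at 54.9% and 91.6% of vehicle. For these 2, DESeq2 gave -0.87 and -0.13, edgeR -0.88 and -0.13, and DESeq2 with the culture block 0.07 and 0.09. DESeq2 called none of the 4 members to which it gave an adjusted p (smallest 0.930) and gave none for Snhg1, Snhg5, Snhg6 and Snhg8. Limma called 0.0% of the 6356 genes of the CLEAR table lower and 0.0% of the 17671 genes of the unfiltered table. In limma 1 of 8 members, Snhg4, had an unadjusted p below 0.05. In either direction, so did 1093 of the 17671 genes of the unfiltered table and 646 of the 6356 of the CLEAR table. Snhg4 was also the only member whose groups did not overlap, beside 6.42% of genes in the unfiltered table and 8.43% in the CLEAR table.

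Gas5 measured 575, 1032 and 834 normalized counts in vehicle at 10 pg and 1175, 966 and 584 with H2O2, so the same F5 culture that was at 63.7% of vehicle at 1 ng was at 204% here. Snhg3 ranged from 0.851 (M9) to 323 (F8) between vehicle libraries. Snhg4 measured 119, 98.3 and 73.2 in vehicle and 60.3 in the H2O2 library of F8, with 0 reads in those of F5 and M9, and a count of 0 allows up to 3 reads per library. Snhg12 had 0 reads in both F8 libraries and 49.4 to 81.3 normalized counts in the other libraries.

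The spread between replicates was wider at 10 pg. The median coefficient of variation of the 8 members among vehicle libraries was 12.9% for 1 ng, 9.96% for 100 pg and 42.5% for 10 pg, and among H2O2 libraries 20.3%, 17.8% and 73.3%. The levels of a member in the 6 RNA samples had a median Pearson r of 0.77 between 1 ng and 100 pg (from 0.29 to 0.92 over the 8 members), and of 0.22 between 1 ng and 10 pg (from -0.28 to 0.89). These are descriptions of dilutions of the same RNA.

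Per length of annotated exons, the vehicle mean at 1 ng was highest for Gas5, at 306 normalized counts per kb, then Snhg6 at 186, Snhg3 at 113, Snhg5 at 106, Snhg8 at 75.3, Snhg1 at 55.1 and Snhg12 at 15.0. The exon lengths include transcripts that keep the introns, so the order holds for these gene models only, and no length was used for Snhg4.

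Reads were counted without strand, and some hosts overlap other genes. Snhg3 shares 135 exon bases with Rcc1, a chromatin-bound exchange factor for Ran whose annotated start lies 81 bases away on the same strand, and 705 with Gm17300 on the opposite strand. Rcc1 fell from 1145 ± 131 to 426 ± 156 normalized counts at 1 ng (log2 difference -1.49, SE 0.26, adjusted p = 0.0234). Gm17300, in the unfiltered table, measured 123 ± 19.2 and 76.6 ± 15.9, near the levels of Snhg3 itself (111 ± 15.3 and 70.6 ± 12.0), and reads of the pair cannot be told apart. Slc3a2, an amino acid transporter subunit that starts 106 bases from Snhg1 in the other direction, measured 5562 ± 985 and 7231 ± 2279 (adjusted p = 0.332). Zbtb37 beside Gas5 and Mcmdc2, which shares 127 exon bases with Snhg6, had adjusted p of 0.490 and 0.543.

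Genes of related function are read beside the share of all genes called at 1 ng, 7.11% lower and 5.57% higher in limma, and 9.87% lower with the culture block. Their lists, like the members, were chosen with earlier results of these data known. The proteins that bind snoRNAs come first. Of the 7 tested core proteins of box C/D and H/ACA particles, 6 fell at 1 ng, none rose and 1 did not pass, with a median log2 difference of -0.96. Dkc1, the pseudouridine synthase of H/ACA particles and itself a snoRNA host, fell from 1423 ± 164 to 648 ± 152 normalized counts (log2 difference -1.16, SE 0.18, adjusted p = 0.0208). Fbl, the methyltransferase of box C/D particles, fell from 1238 ± 48.8 to 705 ± 148 (log2 difference -0.84, SE 0.16, adjusted p = 0.0267). Nop58 (-1.14) and Nop10 (-0.69), structural proteins of the 2 classes, fell too, and Nop56 measured 3117 ± 286 and 1694 ± 640 without passing in limma (adjusted p = 0.0579), and passed with the culture block (0.0340), which called all 7. At 100 pg the median was -0.93 with 0 called by limma, 2 with the culture block and 5 by DESeq2. Of all genes tested at 100 pg, limma called 0.846% lower, the block 279 of 12171 and DESeq2 5.01%. At 1 ng, 0 of the core proteins were called without the vehicle library of any culture or the H2O2 library of F8 or M9. Without the H2O2 library of F5 7 were called, beside 775 of 13692 genes called lower.

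**Figure D4:**
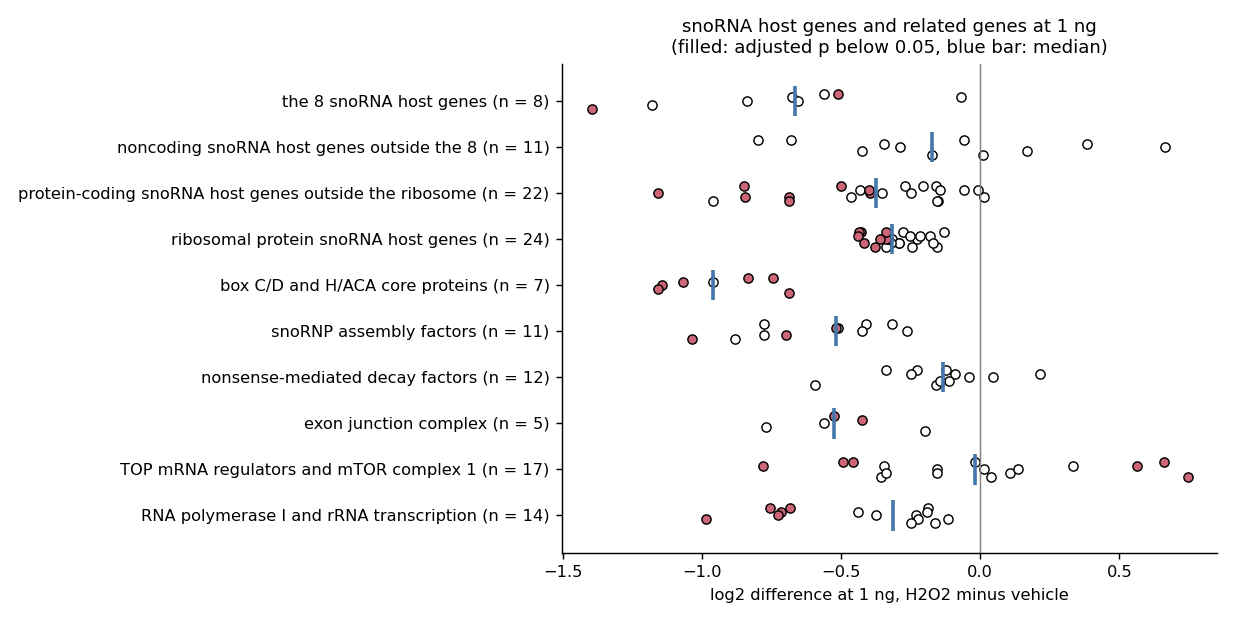
Log2 difference at 1 ng, H2O2 minus vehicle (x axis), for the 8 snoRNA host genes and for 9 lists of related genes (rows), 1 point per tested gene, filled where the adjusted p is below 0.05, with a blue bar at the median. The medians of the 8 hosts (-0.66) and of the core proteins (-0.96) lie furthest to the left. Nearest to 0 is that of the regulators of TOP mRNAs and mTOR complex 1 (-0.02). Those of the nonsense-mediated decay factors (-0.13) and the noncoding hosts outside the 8 (-0.17) come next.

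Factors that assemble snoRNA particles showed 3 of 11 lower at 1 ng and none higher, with a median of -0.52, and 5 of 11 lower with the culture block. Ruvbl2 and Ruvbl1, paired ATPases of the assembly machinery, had log2 differences of -1.04 and -0.70 (adjusted p = 0.0309 and 0.0325), and Rpap3, a cochaperone that works with them, -0.52. Of 14 genes for RNA polymerase I and the making of ribosomal RNA, 5 fell (Polr1a, Polr1b, Npm1, Nop2 and Taf1d) and none rose, with a median of -0.31. Npm1, a nucleolar chaperone, had 5089 ± 102 normalized counts in vehicle and 2647 ± 723 with H2O2.

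Among other hosts of snoRNAs, protein-coding and noncoding genes gave different counts, a difference that was not tested. Of 22 protein-coding hosts outside the ribosome 8 fell and none rose (median -0.37), among them Wdr43, Ppan and Ncl, which make ribosomes, with log2 differences of -0.69, -0.85 and -0.85. Of 24 ribosomal protein hosts 8 fell and none rose (median -0.32), with the smallest adjusted p for Rpl21 (-0.43), Rpsa (-0.42) and Rpl12 (-0.43). Of 11 noncoding hosts outside the 8, none was called in limma or DESeq2, and the median was -0.17. Epb41l4aos (-0.80), Snhg16 (-0.68) and Zfas1 (-0.43) had log2 differences below those of the rest without passing (adjusted p = 0.150, 0.229 and 0.223), Snhg15 was at 0.01 and Snhg11 at 0.67.

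At 1 ng decay factors were not called, genes of the exon junction complex moved down only, and regulators of TOP mRNAs moved in both directions. None of 12 nonsense-mediated decay factors was called in limma or DESeq2 (median -0.13). In the exon junction complex, which marks spliced RNAs, 2 of 5 fell, Eif4a3 (-0.53, adjusted p = 0.0338) and Rbm8a (-0.42, adjusted p = 0.0417). All 5 had log2 differences below 0 (median -0.53), and 3 were called lower with the culture block. Of 17 regulators of TOP mRNAs and mTOR complex 1, 3 fell and 3 rose, with a median of -0.02. Those that fell were Eif4ebp1 (-0.78), which binds Eif4e, Larp1 (-0.46), which binds TOP motifs, and Eif4e (-0.49) itself, the cap-binding protein. Those that rose were Sesn1 (0.66), Sesn2 (0.56) and Ddit4 (0.75), which inhibit mTOR complex 1. With the culture block Larp1 (adjusted p = 0.0562) and Ddit4 (0.0544) lost their calls, which left 2 lower and 2 higher.

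The genes most like the hosts in pattern were sought over the 18 libraries, with log2 levels centred on each input, among 5884 genes with a mean of at least 50 normalized counts at 1 ng. Closest to the mean of the 5 members held by all CLEAR tables were Rps27a (Pearson r = 0.92), a ribosomal protein fused to ubiquitin, Rrp8 (0.92), a methyltransferase of ribosomal RNA, Dkc1 (0.92), Pus7 (0.91), a pseudouridine synthase, and Ddx18 (0.91), a nucleolar helicase. Closest to single members were Chchd4 (0.88) and Tsen34 (0.86) for Gas5, Tomt (0.93) and Rps27a (0.92) for Snhg1, Xrn2 (0.84) and Donson (0.82) for Snhg5, Ints3 (0.90) and Ngdn (0.89) for Snhg6, and Sap30bp (0.93) and Prkci (0.93) for Snhg8. All points share libraries and size factors, and the 18 libraries hold 6 RNA samples, so these values are descriptions.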

How the data were processed

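Total RNA of vehicle- and H2O2-treated NSCs was amplified with SMART-Seq HT, made into Nextera XT libraries and sequenced with paired ends. The authors aligned reads with HISAT2 2.0.6, counted them per gene with featureCounts without strand on a GENCODE release earlier than M21, and deposited, for each input, an unfiltered table and one filtered by CLEAR. The methods name the mouse build GRCm38, and the submitters' processing notes name GRCh38. What the authors deposited is a signal, the normalized count, a gene's count over the size factor of its library and table. Every value was a whole multiple of 1 read within 1e-08, so whole reads were recovered.

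Libraries were grouped by column headers, and 0 columns belonged to no sample of the series. Genes at 0 in all 6 libraries of an input were left out. H2O2 and vehicle were compared within each input with limma 3.58.1 (R 4.3.3, mean trend, pseudocount 1, 2-sided, Benjamini-Hochberg over all tested genes, threshold 0.05). Where the CLEAR table lacked a member, the unfiltered table was used with a mean of at least 1. DESeq2 1.42.0 and edgeR 4.0.16 were run on recovered reads. Scripts were tested on simulated data. Other alternatives were pseudocounts of 0.5 and 5, a mean of at least 10, TMM scaling, the unfiltered tables, the culture as a block and leaving out libraries or cultures. p-values measure the spread between 3 cultures of 2 lines, and PCR reads are not independent molecules, so counting limits cover counting error only. The report gives the range of depth at each input.

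Headers name the same culture for vehicle and H2O2 libraries. At 1 ng deviations from group means correlated within each culture (F5 r = 0.162, F8 r = 0.149, M9 r = 0.446). Between cultures, vehicle F8 with H2O2 F5 had r = 0.133 and vehicle F5 with H2O2 F8 0.043. Pairs of M9 with F5 or F8 ran from -0.293 to -0.162. M9 thus stood apart, and a pairing of F5 and F8 each with itself was weak. The text names all 8 members, their annotated neighbours, up to 4 called genes per list with the smallest adjusted p at 1 ng, and the genes most like the members. Nop56, Taf1d, Eif4e, Ddit4 and list members named without passing were added after their values were seen. Members and lists were chosen with earlier results of these data known. One list symbol, Snhg16, was matched by its older name in RefSeq, and the core protein gene Snu13 was in the unfiltered tables only and was not tested.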

Additional observations from a re-analysis of the deposited data

How the results depend on the processing

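At 1 ng the number of host genes called lower, 2, was 5 under DESeq2 and 3 under edgeR (Gas5, Snhg5 and Snhg6). In edgeR 992 of 13692 genes were called lower. The number of host genes was 1 with a pseudocount of 5, where Snhg5 missed the threshold and 958 of 13692 genes were called lower. It was 0 in each fit without 1 library (range 0 to 0) and without both libraries of culture F5 (0), F8 (0) or M9 (0), fits with fewer samples. With the culture as a replicate block it was 3. Over 19 alternatives at 1 ng, Gas5 was called in 10, Snhg5 in 9, Snhg4 in 5, Snhg6 in 2 and Snhg1 in 1. At 100 pg the number called lower, 0, was 1 under DESeq2 and 1 under DESeq2 with the replicate block. These fits called 610 and 715 of 12171 genes lower. At 10 pg no alternative called a member. In limma the block changed the call of Snhg4 alone among the members at 1 ng. In DESeq2 it lost Snhg1 and Snhg6 and left 3. Among the lists at 1 ng, counts called lower moved by over 1.5 times for ribosomal protein hosts (8, with 13 under DESeq2, 5 under DESeq2 with the block and 4 in the unfiltered table), assembly factors (3, with 6 under DESeq2 and 5 with the block), the exon junction complex (2, with 4 under DESeq2 and 1 in the unfiltered table), TOP regulators (3, with 1 in the unfiltered table) and decay factors (0, with 1 under DESeq2 with the block). Every list was at 0 in the 5 fits without 1 library that called no gene. The sign of the log2 difference was kept in 150 of 152 values at 1 ng, where both changes were Snhg8, in 152 of 152 at 100 pg and in 131 of 149 at 10 pg. A mean of at least 10 was not run for Snhg3, Snhg4 and Snhg12 at 10 pg. The cause of these changes was not tested. Few reads limit Snhg12, at 13 to 43 per library at 1 ng.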

Other observations

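The annotated snoRNA genes inside the 7 hosts with coordinates (27 symbols, all in the unfiltered tables) held few reads. Snord80 and Snora16a had 2 rows each, of overlapping gene models, and both rows are in the sums below. At 1 ng they held 519 reads over the 3 vehicle libraries and 243 over the 3 H2O2 libraries, beside 9734 reads of their hosts over all 6. As summed normalized counts these were 153, 209 and 136 in vehicle (F5, F8, M9) and 85.8, 65.4 and 97.8 with H2O2, and the groups did not overlap. At 100 pg the sums were 152, 143 and 156 in vehicle and 94.6, 134 and 109 with H2O2, again without overlap. At 10 pg they ran from 96.4 to 131 in vehicle and from 9.26 to 246 with H2O2. Mature snoRNAs carry no poly(A) tail, and reads in these rows were not separated from those of unspliced host RNA, so they are given as values only. Snord78, in Gas5, held the most at 1 ng, with 105 and 47 reads.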
